A study of Homo sapiens with 6 samples.

Results

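Expression of 44 genes of cholesterol synthesis, uptake and intracellular sterol transport was described by RNA-seq in A375, an established human melanoma cell line, and in its RIPK4 knockout subline. A gene was taken as a member where its name in the deposited table equals 1 of these 44 names, which were listed by function. The table lists 20851 gene names and holds 43 of the members, while CH25H was not analysed here. By role, 8 members act in the mevalonate pathway, 11 between squalene and cholesterol, 5 in the control of SREBP, 3 in uptake and lysosomal export, 7 in sterol transfer, 5 with the LXR receptors, in efflux and in ester storage, and 4 in fatty acid and lipid synthesis. GRAMD1B served as the marker gene of the set.

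The study asked what loss of RIPK4, a serine/threonine kinase, does to the fate of melanoma cells, and it compared 3 libraries of A375 RIPK4.KO (the knockout) with 3 of A375 neg (the control), which its design text calls biological replicates. A375 RIPK4.KO carries a lentiviral CRISPR/Cas9 construct against RIPK4, and A375 neg received a nontargeting sgRNA that has no match in the human genome, although the labels name it a GFP control. Both sublines grew in RPMI medium with fetal bovine serum, a source of lipoprotein cholesterol, and antibiotics, and no other agent is named for either. The A375 RIPK4.KO libraries are all of clone #1, and the effect of the knockout cannot be told apart from other features of that clone.

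Cholesterol is built from acetyl-CoA through mevalonate and squalene, or taken up with lipoproteins and released in the lysosome. SREBP transcription factors turn on the genes of both routes when sterol in the endoplasmic reticulum (ER) is low: SCAP then carries them to the Golgi, where they are cut and set free, and INSIG proteins hold SCAP back when sterol is plentiful. Soluble START proteins, ER-anchored GRAMD1 (Aster) proteins and oxysterol-binding proteins move sterol between membranes, and the nuclear receptors LXR, which respond to oxysterols, switch on efflux.

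Promoter sequence is shown for 4 members, so that genes of the SREBP system that fell can be read beside genes that did not pass the test. INSIG1 and STARD4, both known SREBP targets, fell, whereas HMGCS1, another target, and SREBF2, which encodes SREBP-2, did not pass. Each line holds the 250 bases before the annotated gene start, 5′ to 3′ on the gene's own strand, from RefSeq on GRCh38.p14. Capitals mark the searched letters, CCAAT on either strand, read as ATTGG where it lies on the opposite strand, and TCACNCCAC on either strand. CCAAT is the core of a box that binds the factor NF-Y, a known partner of SREBP, and TCACNCCAC is the core of a sterol response element. The windows are chr7:155297628-155297877 (plus strand) for INSIG1, chr5:111512536-111512785 (minus strand) for STARD4, chr5:43313413-43313662 (minus strand) for HMGCS1 and chr22:41832855-41833104 (plus strand) for SREBF2.
INSIG1: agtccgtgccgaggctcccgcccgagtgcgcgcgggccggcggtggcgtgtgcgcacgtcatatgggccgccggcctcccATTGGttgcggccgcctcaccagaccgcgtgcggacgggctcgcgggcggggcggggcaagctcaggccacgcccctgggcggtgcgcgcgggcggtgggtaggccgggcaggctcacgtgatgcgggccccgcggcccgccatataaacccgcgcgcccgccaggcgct
STARD4: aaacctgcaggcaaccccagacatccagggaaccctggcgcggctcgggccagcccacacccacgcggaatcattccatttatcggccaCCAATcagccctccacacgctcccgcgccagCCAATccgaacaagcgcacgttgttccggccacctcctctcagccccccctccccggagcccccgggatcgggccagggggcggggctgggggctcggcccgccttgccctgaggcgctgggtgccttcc
HMGCS1: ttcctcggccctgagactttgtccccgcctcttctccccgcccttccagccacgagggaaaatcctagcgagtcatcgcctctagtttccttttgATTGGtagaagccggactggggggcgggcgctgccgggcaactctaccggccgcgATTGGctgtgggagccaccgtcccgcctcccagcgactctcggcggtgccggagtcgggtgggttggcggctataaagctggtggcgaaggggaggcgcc
SREBF2: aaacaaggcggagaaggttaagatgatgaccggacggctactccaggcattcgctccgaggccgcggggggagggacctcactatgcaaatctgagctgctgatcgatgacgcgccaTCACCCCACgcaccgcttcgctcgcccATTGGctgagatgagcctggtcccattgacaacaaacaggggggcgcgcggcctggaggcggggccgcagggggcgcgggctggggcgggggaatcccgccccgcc

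CCAAT occurred 1 time in the window of INSIG1, 2 times in that of STARD4, 2 times in that of HMGCS1 and 1 time in that of SREBF2. A window was given for 37 members, and CCAAT occurred in 27 of them (73.0%), beside 37.0% of the 27305 gene symbols with a window. It occurred for 7 of the 12 members with a window that passed the test described below and for 20 of the 25 that did not. TCACNCCAC was found for 1 of the 37 members, SREBF2, where it does not overlap the CCAAT match, and for 1.09% of all symbols. A gene with several start sites, such as HMGCS1 with 2, had more bases searched, and a match of letters is not a measured binding site. ACAT2, FDFT1, SQLE, GRAMD1B, ABCG1 and FASN had no window.

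Genes took 21882863 to 26694140 counts in each library, and 3 counts, the limit that a count of 0 allows, correspond to 0.112 to 0.137 CPM (counts scaled to a common total), counting error only. RIPK4 itself had 319, 368 and 404 raw counts in the controls against 42, 51 and 61 in the knockouts. Of 11 melanoma genes 8 were measured, at a summed 5636 to 5690 CPM in the controls against 5449 to 6231 in the knockouts, a sum made up mostly of VIM, while the pigment cell genes MLANA, TYR and DCT were not analysed here. SOX10 and VIM were abundant in every library and did not pass the test described below, whereas 4 of the 8 did. SOX10 came near the threshold, with a log2 fold change of −0.20 (edgeR adjusted p = 0.0507). Its groups did not overlap, and it passed with DESeq2. By log2 fold change NGFR fell by 3.03 (edgeR adjusted p = 0.000141) and SOX9 rose by 2.71 (0.000277), while S100B fell by 0.89 (0.0360) and MITF by 0.44 (0.0449), and each of the latter pair lost its call in several settings that leave out 1 library. Summed fibroblast markers (4 of 5) lay at 4.92 to 6.11 and 4.17 to 5.57 CPM and the hepatocyte marker APOA1 at 0 to 0.150 and 0 to 0.0425 CPM. Keratinocyte markers (4 of 6) were at 71.6 to 75.2 CPM in A375 neg and 53.6 to 66.3 in A375 RIPK4.KO, and leukocyte markers (2 of 4) at 1.35 to 1.55 and 0 to 0.579. Most of the keratinocyte sum was KRT10, with a log2 fold change of −0.0055 (edgeR adjusted p = 0.976), whereas KRT14 fell by 1.75 (3.46e-05). The leukocyte sum was mostly LYZ, at 38, 36 and 37 raw counts in the controls against 13, 0 and 3 in the knockouts. The part of these marker shifts in the sterol genes was not tested. Knockout replicate 2 stood apart, with a score of −34.6 on the second principal component against 25.7 and 14.1 for the other knockout libraries. Its deviation from the group mean also varied with log2 gene length (r = −0.151 across genes, against −0.040 to 0.098 for the other libraries).

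Loss of RIPK4 went with lower mRNA of GRAMD1B, STARD4, INSIG1, SREBF1, NPC1 and ACACB. Of the 19 enzymes of cholesterol synthesis, 1 passed the test described next (5.26%, beside 16.6% of all genes). All 43 members had enough counts for edgeR's filterByExpr and were compared among 14443 genes with edgeR's quasi-likelihood test (two-sided), with Benjamini-Hochberg adjustment over all of them, and a gene passes where its adjusted p is under 0.05. Of the members, 13 passed (30.2%), beside 16.6% of all genes. Higher in A375 RIPK4.KO were 4 members (9.3%, beside 8.4%), namely SCAP, GRAMD1A, GRAMD1C and NR1H2. Lower were 9 (20.9%, beside 8.24%), namely IDI1, SREBF1, INSIG1, NPC1, STARD4, GRAMD1B, GRAMD2B, SCD and ACACB. With a change of at least 1.5-fold also required, 6 members remained, beside 9.04% of genes. Of these, 1 member was higher (GRAMD1C, beside 4.39% of genes) and 5 were lower (INSIG1, STARD4, GRAMD1B, GRAMD2B and ACACB, beside 4.65%). The median log2 fold change, A375 RIPK4.KO over A375 neg, was −0.06 over the members and −0.0047 over all genes tested. SREBF1, INSIG1, NPC1, STARD4, GRAMD1B and ACACB passed under every one of the 13 other settings tried. Without knockout replicate 2, 17 members passed, among them these 13, with 5 higher, 12 lower and a median of −0.12. Fewer passed without control replicate 1 (8 members), control replicate 2 (8), control replicate 3 (9), knockout replicate 1 (12) or knockout replicate 3 (7). The count of higher members was 2 without control replicate 1, 1 without control replicate 2, 1 without control replicate 3 and 0 without knockout replicate 3. Past the 1.5-fold limit it was 2 with DESeq2, with the correction for gene length and without control replicate 1, and 0 without control replicate 3 or knockout replicate 3.

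The heat map sets all members side by side by library. Among the transfer genes GRAMD1B, STARD4, GRAMD1C and GRAMD2B are coloured most, while OSBP, OSBPL3 and GRAMD1A are pale. Among the synthesis enzymes FDFT1, TM7SF2 and LSS stand out, with log2 fold changes of 0.93, −0.73 and 0.43. In the rows drawn these have the fewest counts of the 19 enzymes, and none of the 3 passed the test. Most reads of FDFT1 fell on a scaffold copy that is not drawn. With both rows summed its log2 fold change was −0.44.

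**Figure D1:**
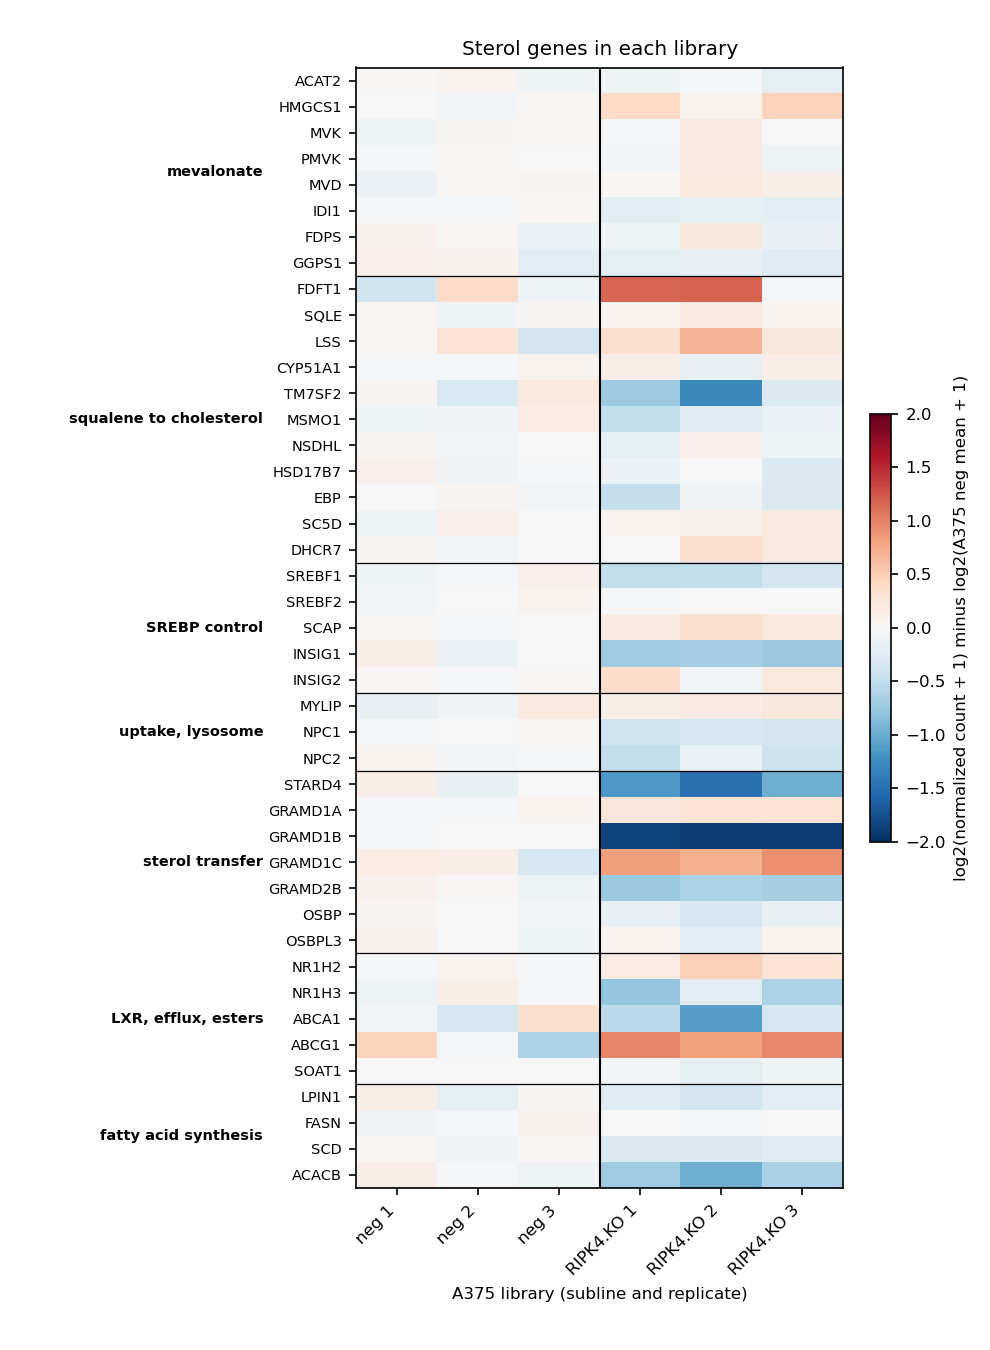
Each of the 43 members (rows, grouped by role) in each of the 6 A375 libraries (columns), coloured by log2(normalized count + 1) minus log2 of the A375 neg mean + 1, from −2 (blue) to 2 (red). GRAMD1B is the darkest row, near −1.88 in every A375 RIPK4.KO library, and the low counts of the FDFT1 row drawn vary among libraries of 1 group.

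Normalized counts, scaled by library with edgeR's TMM factors, did not overlap between the groups for 24 of the 43 members (55.8%), beside 36.5% of all genes tested. Of these 24, 7 were higher and 17 lower in A375 RIPK4.KO, and 11 did not pass the test. Of the 19 synthesis enzymes 1 passed (5.26%), 5 had an unadjusted p under 0.05 and 1 passed with DESeq2. Of the 24 other members 12 passed, beside 16.6% of all genes. The summed CPM of the synthesis enzymes was 717, 709 and 684 in the controls against 663, 742 and 670 in the knockouts, so the groups overlapped. This sum leaves out the scaffold copies of FDFT1 and LSS, and that of FDFT1 holds most of its reads. The plot of log2 fold changes by role gives each member's difference with its standard error (SE).

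**Figure D2:**
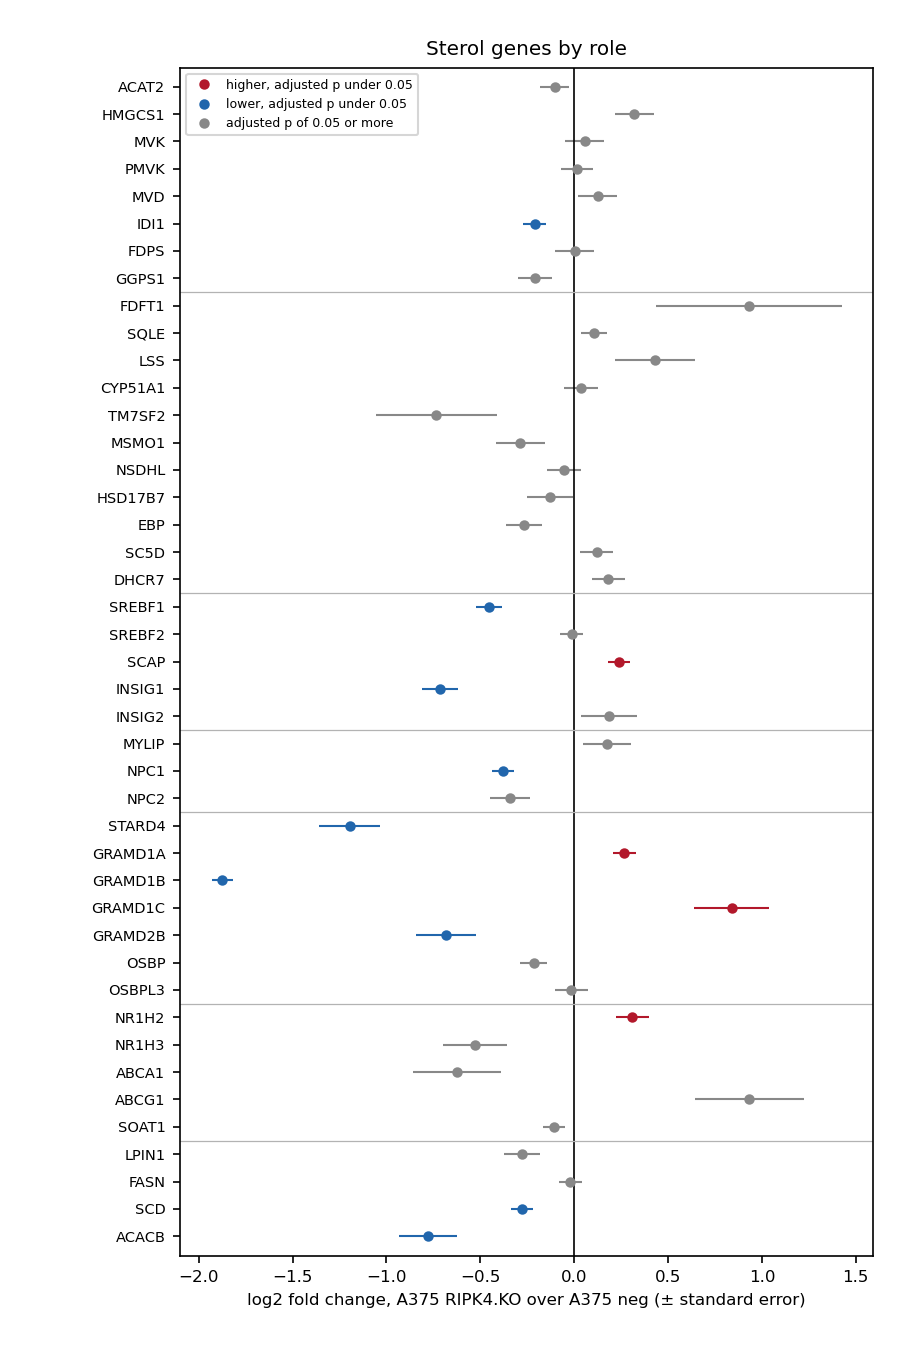
Log2 fold change of each member, A375 RIPK4.KO over A375 neg (horizontal axis, with bars of 1 standard error), in order of role, with red for higher and blue for lower members with an adjusted p under 0.05. The 4 red and 9 blue points lie mainly below the synthesis enzymes, of which IDI1 alone is coloured.

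In the mevalonate pathway, 1 of 8 enzymes passed (12.5%, beside 16.6% of all genes). IDI1, the isopentenyl diphosphate isomerase (chromosome 10, 1039152 to 1056704 in GRCh38), had 1274, 1393 and 1412 raw counts in the controls against 1026, 1085 and 1097 in the knockouts. All control libraries were higher, by a small margin. IDI1 fell by 0.21 on the log2 scale (SE 0.06, edgeR adjusted p = 0.0442). Among the settings in which it did not pass were DESeq2 (0.0591), the fit without the filter on low counts (0.0735), and those without control replicate 1, 2 or 3 or knockout replicate 1 or 3, where the adjusted p was 0.0908 to 0.154.

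FDPS, the farnesyl diphosphate synthase and the most highly counted enzyme of this arm, had 4580, 4763 and 4142 raw counts in the controls against 3674, 4815 and 3812 in the knockouts, with a log2 fold change of 0.00 (SE 0.10, edgeR adjusted p = 0.994). Its groups overlapped, and without knockout replicate 2 the value was −0.12. HMGCS1, the HMG-CoA synthase, had 781, 811 and 843 raw counts in the controls against 940, 781 and 1048 in the knockouts, overlapping only before normalization. Its log2 fold change was 0.32 (SE 0.10, edgeR adjusted p = 0.0659), with an adjusted p of 0.0376 from DESeq2 and of 0.00131 from edgeR without knockout replicate 2. GGPS1, which makes geranylgeranyl diphosphate, had a log2 fold change of −0.21 (SE 0.09, edgeR adjusted p = 0.159) and an adjusted p of 0.0423 without control replicate 3. ACAT2, MVK, PMVK and MVD, which make acetoacetyl-CoA and phosphorylate and decarboxylate mevalonate, lay between −0.10 and 0.13.

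None of the 11 enzymes from squalene to cholesterol passed edgeR's test, beside 16.6% of all genes. Of the 11 enzymes, 2 had an unadjusted p under 0.05 and 0 passed with DESeq2. EBP, the sterol isomerase with the most counts of this arm, had 1762, 1982 and 1796 raw counts in the controls against 1163, 1609 and 1429 in the knockouts. The groups did not overlap, and the log2 fold change was −0.27 (SE 0.10, edgeR adjusted p = 0.0977). EBP passed with a correction for gene length (0.0167) and without knockout replicate 2 (0.00405). SQLE, the squalene epoxidase, had 1168, 1170 and 1253 raw counts in the controls against 1101, 1236 and 1186 in the knockouts, a log2 fold change of 0.11 (SE 0.07, edgeR adjusted p = 0.347). TM7SF2, a sterol reductase with at most 52 counts in a library, had the lowest log2 fold change of the arm, −0.73, with an SE of 0.32. CYP51A1, MSMO1, NSDHL, HSD17B7, SC5D and DHCR7, which demethylate and reshape the sterol ring, lay between −0.29 and 0.18. A near-identical copy of HSD17B7, HSD17B7P2, had at most 9 counts.

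The value of FDFT1, the squalene synthase, depends on which of its rows is read. Its chromosomal row had 6, 12 and 8 raw counts in the controls against 18, 19 and 8 in the knockouts, a log2 fold change of 0.93 (SE 0.49, edgeR adjusted p = 0.248). A copy on a scaffold of the assembly took most of the reads, with 393, 608 and 921 raw counts in the controls against 277, 355 and 634 in the knockouts. The 2 rows summed gave a log2 fold change of −0.44 (SE 0.31, edgeR adjusted p = 0.383), in the opposite direction, and both groups spread widely. LSS, the lanosterol synthase, also has a scaffold copy, which held at most 16 counts, and its log2 fold change was 0.43 alone and 0.46 with the copy, neither past the test.

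In the control of SREBP, 3 of 5 genes passed, beside 16.6% of all genes. INSIG1, the ER retention protein for SCAP (chromosome 7, 155297878 to 155310235), had 652, 590 and 628 raw counts in the controls against 333, 356 and 350 in the knockouts. The knockout libraries lay close together and far below A375 neg. INSIG1 fell from 597 ± 54.2 to 363 ± 8.37 normalized counts (SD, n = 3), a log2 fold change of −0.72 (SE 0.09, edgeR adjusted p = 0.000877). Its relative INSIG2 had 176, 184 and 186 raw counts in the controls against 205, 161 and 199 in the knockouts. The groups of INSIG2 overlapped, and its log2 fold change was 0.19 (SE 0.15, edgeR adjusted p = 0.455).

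SREBF1, which encodes SREBP-1, the form that favours fatty acid genes (chromosome 17, 17811334 to 17836986), had 2081, 2360 and 2480 raw counts in the controls against 1431, 1506 and 1669 in the knockouts. Every knockout library was below every control library. SREBF1 fell from 2202 ± 137 to 1609 ± 71.8 normalized counts (SD, n = 3), a log2 fold change of −0.45 (SE 0.07, edgeR adjusted p = 0.00202). SREBF2, which encodes SREBP-2, the form that favours sterol genes, had 1811, 2024 and 2088 raw counts in the controls against 1687, 1797 and 1855 in the knockouts, a log2 fold change of −0.01 (SE 0.06, edgeR adjusted p = 0.902). Per length the SREBF genes lay close together in A375 neg, at 11.2 ± 0.696 CPM per kb of exon for SREBF1 and 10.2 ± 0.464 for SREBF2 (SD, n = 3), and in A375 RIPK4.KO they were at 8.17 ± 0.364 and 10.1 ± 0.108.

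SCAP, the escort of SREBP (chromosome 3, 47413681 to 47477127), had 2991, 3152 and 3117 raw counts in the controls against 3065, 3535 and 3352 in the knockouts. The raw counts overlapped, and the normalized counts did not. SCAP rose by a log2 fold change of 0.24 (SE 0.06, edgeR adjusted p = 0.0267), and it did not pass without control replicate 1, 2 or 3 or knockout replicate 3, where the adjusted p was 0.061 to 0.109.

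Of 3 genes of uptake and lysosomal export, NPC1 passed (33.3%, beside 16.6% of all genes). NPC1, the membrane protein that hands cholesterol out of the lysosome (chromosome 18, 23506184 to 23586506), had 1413, 1575 and 1556 raw counts in the controls against 992, 1088 and 1100 in the knockouts, with no overlap. It fell from 1446 ± 31.3 to 1112 ± 25.9 normalized counts (SD, n = 3), a log2 fold change of −0.38 (SE 0.06, edgeR adjusted p = 0.00261). NPC2, its soluble partner in the lysosome, had 771, 765 and 755 raw counts in the controls against 474, 639 and 536 in the knockouts. The NPC2 groups did not overlap either, and its log2 fold change was −0.34 (SE 0.10, edgeR adjusted p = 0.0555), with an adjusted p of 0.0344 from DESeq2 and of 0.00305 from edgeR without knockout replicate 2. MYLIP, an LXR-induced ubiquitin ligase for lipoprotein receptors, was at a log2 fold change of 0.17 (SE 0.13, edgeR adjusted p = 0.412).

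The genes of sterol transfer between membranes held the largest change of all members. GRAMD1B, which draws accessible cholesterol from the plasma membrane into the ER (chromosome 11, 123358422 to 123627767), had 4429, 4947 and 4810 raw counts in the controls against 1148, 1170 and 1199 in the knockouts. Both groups were tight and far apart. GRAMD1B fell 3.67-fold, from 4515 ± 74.9 to 1231 ± 21.2 normalized counts (SD, n = 3), a log2 fold change of −1.88 (SE 0.06, edgeR adjusted p = 1.18e-07). With any 1 library left out, it stayed between −1.89 and −1.87. In a bulk library, fewer cells with the transcript and less transcript per cell cannot be told apart.

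GRAMD1A, a close relative of GRAMD1B (chromosome 19, 34994727 to 35026469), had 1188, 1298 and 1351 raw counts in the controls against 1321, 1419 and 1466 in the knockouts. The raw counts overlapped, while normalized counts did not, at 1221 ± 51.4 and 1470.5 ± 23.2 (SD, n = 3). GRAMD1A rose by a log2 fold change of 0.27 (SE 0.06, edgeR adjusted p = 0.0177), and it did not pass without control replicate 1 or 2 or knockout replicate 3, where the adjusted p was 0.0652 to 0.0828. GRAMD1C, the third relative (chromosome 3, 113828192 to 113947174), had 81, 87 and 60 raw counts in the controls against 120, 114 and 138 in the knockouts, with no overlap. GRAMD1C rose by a log2 fold change of 0.84 (SE 0.20, edgeR adjusted p = 0.0201), and it did not pass without control replicate 3 (0.060) or knockout replicate 3 (0.0757).

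Per length, GRAMD1B was the most abundant of the 3 GRAMD1 transcripts in A375 neg, at 12.4 ± 0.206 CPM per kb of exon (SD, n = 3) against 8.38 ± 0.353 for GRAMD1A and 0.379 ± 0.0714 for GRAMD1C. In A375 RIPK4.KO the order of the first and second changed, with 3.37 ± 0.0581 for GRAMD1B and 10.1 ± 0.159 for GRAMD1A, and GRAMD1C remained the lowest at 0.678 ± 0.0548. The bar plot of shares shows that GRAMD1B made up 58.6%, 59.2% and 57.9% of the summed CPM per kb of the 3 genes in the control libraries and 24.5%, 23.7% and 23.4% in the knockout libraries. A share of a sum falls or rises when any of its terms moves.

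**Figure D3:**
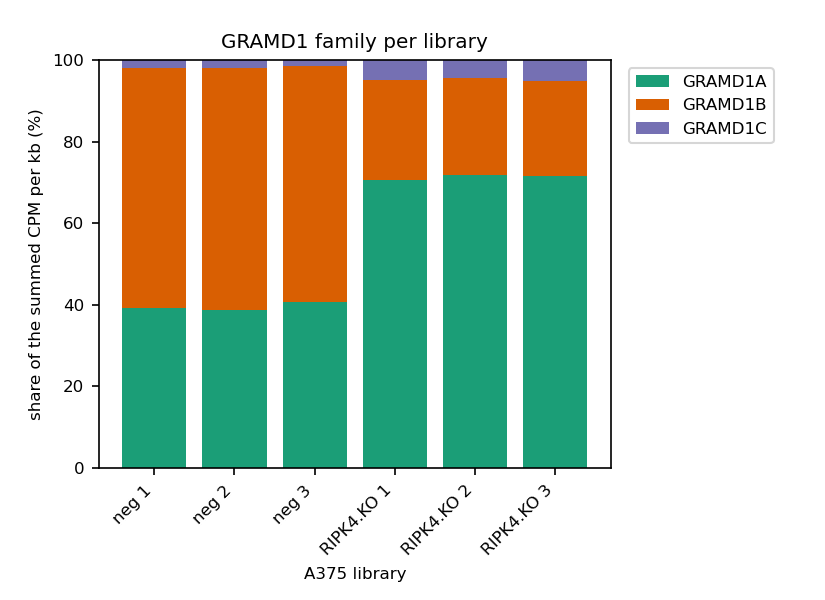
Share of GRAMD1A, GRAMD1B and GRAMD1C in their summed CPM per kb of exon (percent, vertical axis) in each library of A375 neg and A375 RIPK4.KO. The mean GRAMD1B share is 58.6% in A375 neg against 23.9% in A375 RIPK4.KO, and that of GRAMD1A is 39.6% and 71.3%.

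GRAMD2B, a further GRAM domain protein that lacks the sterol-binding domain of the GRAMD1 proteins (chromosome 5, 126360120 to 126494364), had 157, 163 and 145 raw counts in the controls against 81, 91 and 92 in the knockouts. The groups were well separated, and GRAMD2B fell by 0.68 on the log2 scale (SE 0.16, edgeR adjusted p = 0.0172). Its adjusted p was 0.0625 without control replicate 1, 0.0665 without control replicate 2 and 0.0550 without knockout replicate 3. STARD4, a soluble carrier that moves cholesterol between the plasma membrane, endosomes and the ER (chromosome 5, 111496033 to 111512535), had 341, 305 and 330 raw counts in the controls against 128, 106 and 155 in the knockouts. The groups were far apart. STARD4 fell 2.29-fold, from 312 ± 30.0 to 136 ± 23.5 normalized counts (SD, n = 3), a log2 fold change of −1.20 (SE 0.16, edgeR adjusted p = 0.00107). Its antisense neighbour STARD4-AS1 had at most 3 counts in a library.

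OSBP, which exchanges sterol for a phosphoinositide at contacts of ER and Golgi, was at a log2 fold change of −0.22 (SE 0.07, edgeR adjusted p = 0.0723) and its relative OSBPL3 at −0.02 (SE 0.09, edgeR adjusted p = 0.923). Over the 7 transfer genes, 5 passed (71.4%, beside 16.6% of all genes), 2 higher and 3 lower. The summed CPM of the 7 was 402, 397 and 395 in the controls against 262, 241 and 263 in the knockouts. The difference of these sums does not stand for the arm as a whole, since GRAMD1B alone took 180 to 186 CPM in A375 neg and 49.5 to 51.1 CPM in A375 RIPK4.KO. The strip plots by library set GRAMD1B beside the other transfer and control genes.

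**Figure D4:**
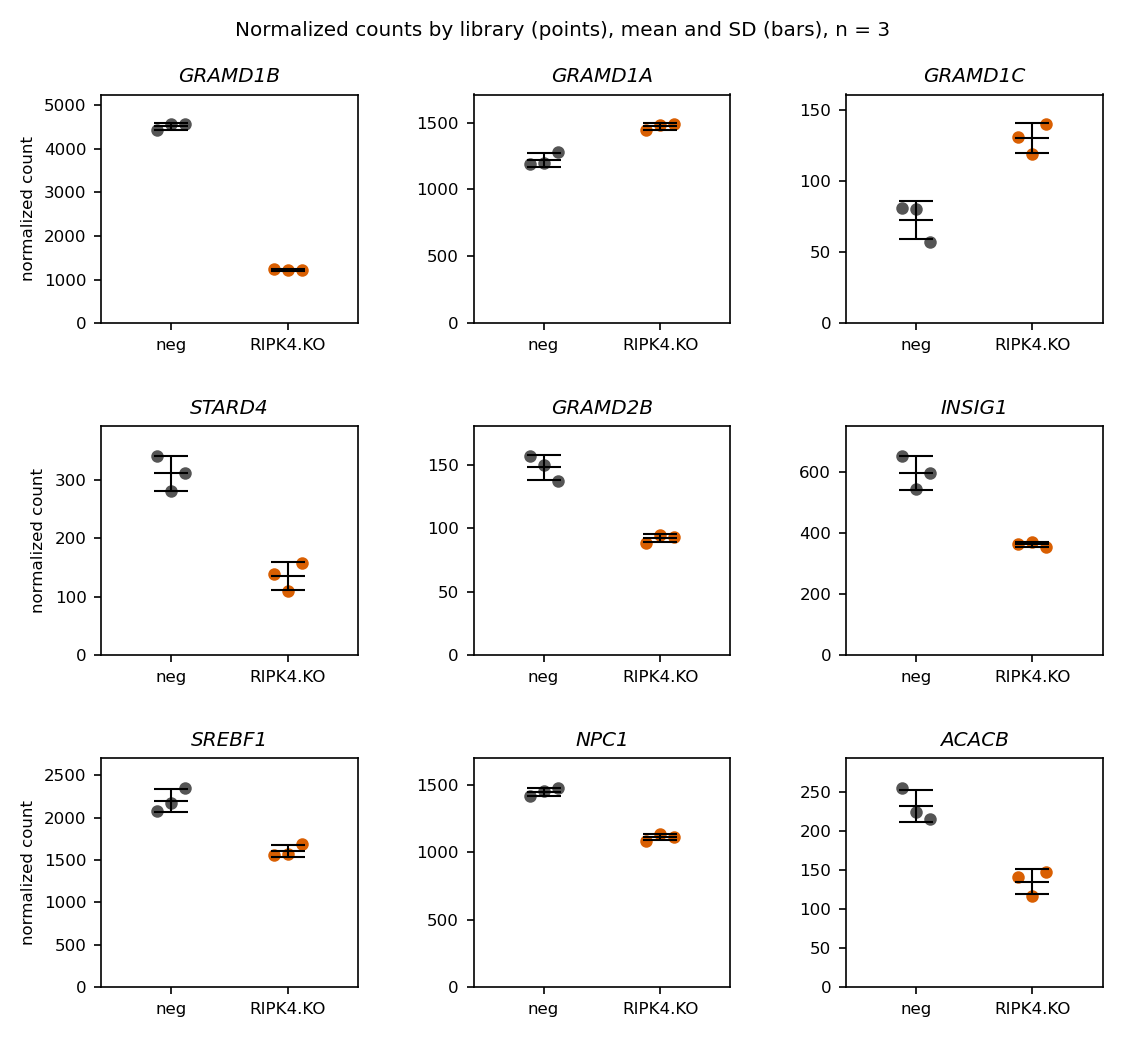
Normalized counts of 9 members in the 3 A375 neg and 3 A375 RIPK4.KO libraries (points), with mean and SD (bars), each panel on its own axis from 0. GRAMD1A and GRAMD1C lie higher in A375 RIPK4.KO and the other panels lower. All 9 were drawn from members past the test, and their groups do not overlap, beside 36.5% of all genes tested.

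Among the LXR, efflux and storage genes, 1 of 5 passed, beside 16.6% of all genes. NR1H2, the LXR-beta receptor (chromosome 19, 50376457 to 50383388), had 3118, 3671 and 3332 raw counts in the controls against 3250, 4312 and 3853 in the knockouts, overlapping as raw counts but not after normalization. NR1H2 rose by a log2 fold change of 0.31 (SE 0.09, edgeR adjusted p = 0.0430), and it did not pass without control replicate 1, 2 or 3 or knockout replicate 3, where the adjusted p was 0.0801 to 0.151. NR1H3, the LXR-alpha receptor, had 237, 301 and 262 raw counts in the controls against 134, 209 and 162 in the knockouts, all lower. The log2 fold change of NR1H3 was −0.53 (SE 0.17, edgeR adjusted p = 0.0682), and its adjusted p was 0.0334 with DESeq2 and 0.00990 with edgeR without knockout replicate 2.

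The LXR-induced cholesterol exporters ABCA1 and ABCG1 had opposite signs, and neither passed. ABCA1 had 221, 196 and 305 raw counts in the controls against 147, 102 and 178 in the knockouts, a log2 fold change of −0.62 (SE 0.24, edgeR adjusted p = 0.110). ABCG1 had 53, 41 and 26 raw counts in the controls against 70, 65 and 75 in the knockouts, a log2 fold change of 0.93 (SE 0.29, edgeR adjusted p = 0.0569). Groups of both did not overlap, and both passed with DESeq2 (0.0495 for ABCA1 and 0.0370 for ABCG1). ABCG1 also passed with edgeR without control replicate 1 (0.0286) and with the correction for gene length (0.0454). SOAT1, which stores cholesterol as esters, was at a log2 fold change of −0.11 (SE 0.06, edgeR adjusted p = 0.256).

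In fatty acid and lipid synthesis, 2 of 4 members passed, beside 16.6% of all genes, and both were lower. ACACB, the mitochondrial acetyl-CoA carboxylase that restrains fatty acid oxidation (chromosome 12, 109111189 to 109268226), had 255, 244 and 227 raw counts in the controls against 129, 112 and 145 in the knockouts. The groups were far apart, and ACACB fell 1.72-fold, a log2 fold change of −0.78 (SE 0.15, edgeR adjusted p = 0.00783). SCD, the stearoyl-CoA desaturase (chromosome 10, 100347233 to 100364826), had 8171, 8185 and 8515 raw counts in the controls against 5950, 6193 and 6580 in the knockouts. SCD fell by 0.28 on the log2 scale (SE 0.06, edgeR adjusted p = 0.0118), and it did not pass without control replicate 1 (0.0702) or 3 (0.0562).

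FASN, the fatty acid synthase and the member with the most counts, had 15409, 17381 and 18092 raw counts in the controls against 14680, 15109 and 15847 in the knockouts. The groups overlapped, with a log2 fold change of −0.02 (SE 0.06, edgeR adjusted p = 0.860). Per length FASN led the members in A375 neg with 70.5 ± 3.85 CPM per kb, followed by SCD with 60.3 ± 2.57 and FDPS with 47.1 ± 3.68 (SD, n = 3). The next genes, NR1H2 with 35.0 ± 1.54 and PMVK with 33.3 ± 0.396, lay about 1 SD of NR1H2 apart. LPIN1, a phosphatidate phosphatase, was at a log2 fold change of −0.28 (SE 0.10, edgeR adjusted p = 0.0896).

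A further 49 genes of the same pathways, listed by role, were read for comparison. Of these 46 were in the table and 43 could be tested, with GRAMD2A, CYP46A1 and CYP7B1 not analysed here and STARD5, ABCG4 and SOAT2 too low in counts. Past the test were 9 (20.9%, beside 16.6% of all genes), 5 higher (11.6%, beside 8.4%) and 4 lower (9.3%, beside 8.24%) in A375 RIPK4.KO. Normalized counts did not overlap between the groups for 20 of the 43 (46.5%, beside 36.5% of all genes tested). The higher genes were 3 without control replicate 1, control replicate 2 or knockout replicate 3, and the lower genes were 7 without knockout replicate 2. None of 5 genes of SREBP processing and sterol-regulated degradation passed edgeR's test (unadjusted p under 0.05 for 1, DESeq2 0), and none of 8 genes of fatty acid synthesis did (unadjusted p under 0.05 for 2, DESeq2 1). Of these 8, ACACA also has a scaffold copy, whose counts are not included. Its own row had 81, 90 and 42 raw counts in the controls against 30, 71 and 64 in the knockouts. The plot of these genes by role shows the changes in sterol transfer, uptake and oxysterol genes.

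**Figure D5:**
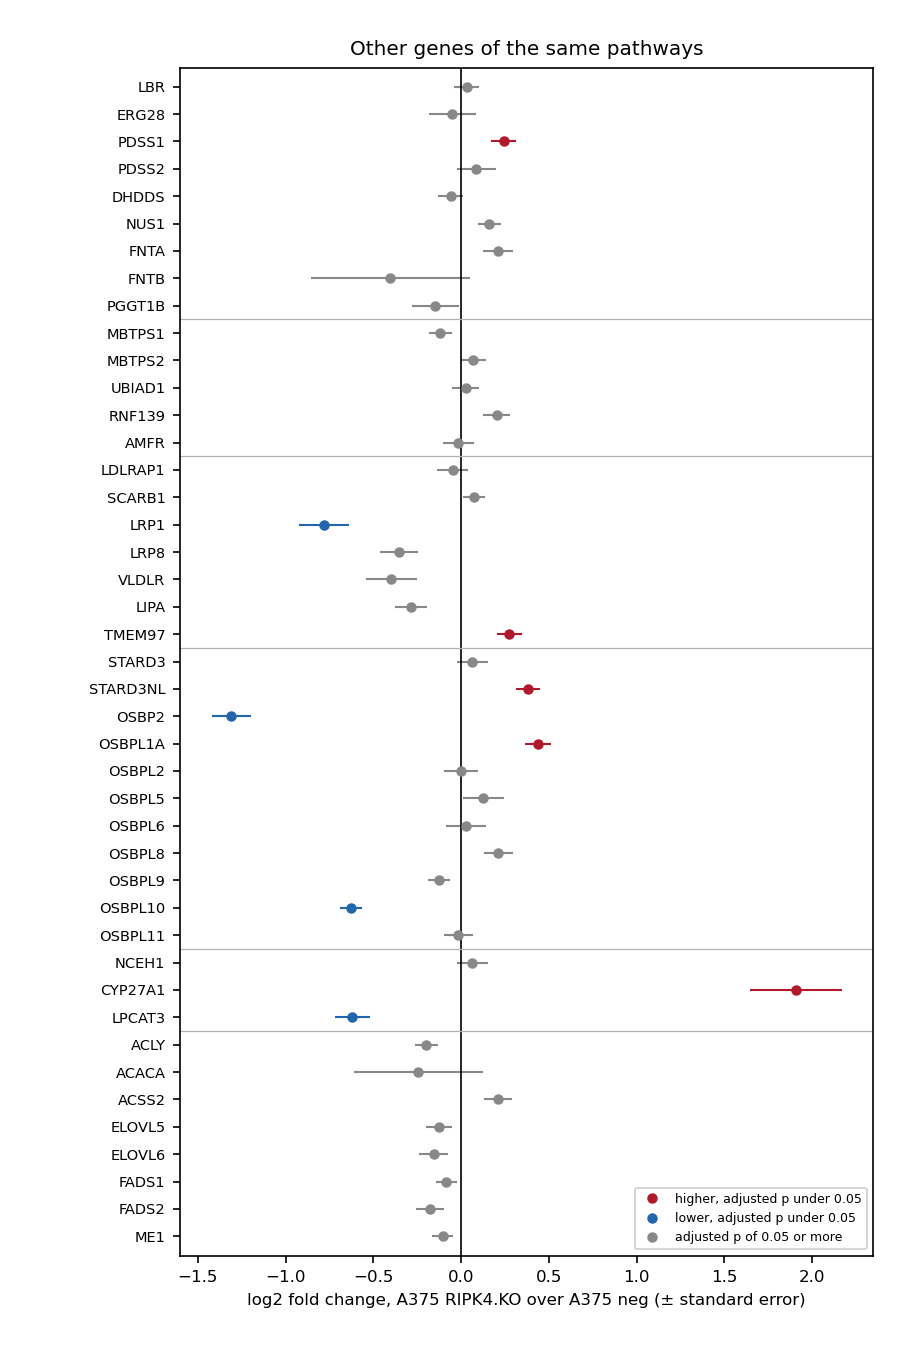
Log2 fold change of 43 further pathway genes, A375 RIPK4.KO over A375 neg (horizontal axis, with bars of 1 standard error), in order of role, with red for higher and blue for lower genes with an adjusted p under 0.05. CYP27A1 at 1.91 and OSBP2 at −1.31 lie farthest from 0.

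CYP27A1, a sterol 27-hydroxylase of mitochondria, had 29, 65 and 60 raw counts in the controls against 169, 170 and 184 in the knockouts, and it rose 3.75-fold, a log2 fold change of 1.91 (SE 0.26, edgeR adjusted p = 0.00108). LRP1, a large lipoprotein receptor, had 1566, 1550 and 1882 raw counts in the controls against 932, 690 and 1028 in the knockouts, a log2 fold change of −0.78 (SE 0.14, edgeR adjusted p = 0.00488). Neither gene had overlapping groups. LPCAT3, an LXR-induced phospholipid acyltransferase, had 1124, 1096 and 1074 raw counts in the controls against 546, 730 and 682 in the knockouts, a log2 fold change of −0.62 (SE 0.10, edgeR adjusted p = 0.00255).

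Relatives of OSBP moved in both directions. OSBP2 had 429, 544 and 520 raw counts in the controls against 176, 174 and 197 in the knockouts, a log2 fold change of −1.31 (SE 0.11, edgeR adjusted p = 7.27e-05), and OSBPL10 had 2175, 2276 and 2153 against 1195, 1282 and 1424, a log2 fold change of −0.63 (SE 0.06, edgeR adjusted p = 0.000213). OSBPL1A rose, from 610, 720 and 704 raw counts to 783, 827 and 903, a log2 fold change of 0.44 (SE 0.07, edgeR adjusted p = 0.00344). STARD3NL, a tether of late endosomes to the ER, had 1396, 1549 and 1526 raw counts in the controls against 1601, 1934 and 1767 in the knockouts, a log2 fold change of 0.38 (SE 0.07, edgeR adjusted p = 0.00567). In each of these 4 genes, named because they passed the test, the groups did not overlap, beside 36.5% of all genes tested.

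TMEM97, an ER protein that limits the amount of NPC1, had 1584, 1496 and 1666 raw counts in the controls against 1623, 1776 and 1836 in the knockouts, a log2 fold change of 0.27 (SE 0.07, edgeR adjusted p = 0.0301). PDSS1, which makes the side chain of ubiquinone, had 817, 980 and 910 raw counts in the controls against 891, 997 and 1029 in the knockouts, a log2 fold change of 0.24 (SE 0.07, edgeR adjusted p = 0.0471). Both overlapped as raw counts and not after normalization. Neither passed without control replicate 1, 2 or 3 or knockout replicate 3, with an adjusted p of 0.0587 to 0.118 for TMEM97 and of 0.0834 to 0.176 for PDSS1, and PDSS1 did not pass without the filter on low counts (0.0635) or with the correction for gene length (0.0608). The other 7 passed under all 13 settings.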

How the data were processed

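RNA of 3 A375 neg and 3 A375 RIPK4.KO replicates was made into poly(A)-enriched, strand-specific libraries and sequenced in pairs. The authors' provider mapped and counted the reads, and the submitters' processing notes name cutadapt, FastQC, HISAT2, HTSeq and DESeq2 with GRCh38.p13. The strand setting of the counting is not given in the sources used here. The deposited table holds raw counts per gene, which were used here, and normalized counts, a signal that the authors scaled by library and that was not used. Its columns of the authors' own comparison (fold change, its log2, the Wald statistic, p and adjusted p) were not used.

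The groups were compared with edgeR 4.0.16 under R 4.3.3 (TMM, filterByExpr, quasi-likelihood test, group only, all 6 libraries, Benjamini-Hochberg adjustment over 14443 genes), after the script was tested on simulated data. Lengths for CPM per kb are merged exons of GENCODE 29, and coordinates and promoters are from RefSeq on GRCh38.p14, whose genes overlapped the table's exons for 43 of 43 members. Alternatives were DESeq2 1.42.0 and its size factors within edgeR, the filter dropped or raised to a mean of 50 counts, a block for replicate number, the omission of each library, a correction for gene length (13129 genes have one) and, added for the counts and the median after seeing the data, summed scaffold copies. Raw counts are given for members past the test, GRAMD1B, the most highly counted member of each role, the GRAMD1 and INSIG families, genes with a listed copy, and the further pathway genes past the test. Those of HMGCS1, SQLE, SREBF2, NPC2, NR1H3, ABCA1 and ABCG1 were added after their values were seen. The members and lists were chosen with earlier results of these data known. Some genes of these pathways are not reported here. Figures were drawn with matplotlib 3.10.9.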

Additional observations from a re-analysis of the deposited data

How the results depend on the processing

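Of the 13 members past the test, 13 also passed with DESeq2's size factors, 12 with DESeq2 (17 members past in all), 12 with every gene kept, 13 where a mean of 50 counts was required (14 in all), 13 with the gene length correction (16 in all) and 13 with scaffold copies summed (chosen after seeing the data). Omitting each library in turn gave 0 to 5 higher members beside 4, 6 to 12 lower members beside 9, 0 to 2 higher members past the 1.5-fold limit beside 1, 4 to 6 lower ones beside 5, 3 to 5 higher further pathway genes beside 5 and 4 to 7 lower ones beside 4. The fewest members passed without knockout replicate 3 (7) and the most without knockout replicate 2 (17). DESeq2 and the gene length correction each gave 2 higher members past the 1.5-fold limit, GRAMD1C and ABCG1. The median log2 fold change of the members was −0.090 with the gene length correction and −0.10 with copies summed, and −0.12 to −0.049 with 1 library left out, lowest without knockout replicate 2. The direction of FDPS, near 0, turned with the gene length correction (−0.00053), and without 1 library it ran from −0.12 (knockout replicate 2) to 0.075, below 0 also without control replicate 3 (−0.059). FASN turned with the gene length correction (0.0094) and ran from −0.055 to 0.024 without 1 library, above 0 without control replicate 3, and FDFT1 turned with its copies summed (−0.44). Another 6 members near 0 turned as well. With the gene length correction PMVK was at −0.019, SREBF2 at 0.0095 and OSBPL3 at 0.0057. Without 1 library PMVK ran from −0.071 to 0.072, SREBF2 from −0.042 to 0.023, OSBPL3 from −0.061 to 0.075, CYP51A1 from −0.016 to 0.13, NSDHL from −0.14 to 0.0044 and MVK from −0.0073 to 0.10. Neither FDPS, FASN nor any of these 6 passed in any setting tried. Where not stated by the construction of the alternative, the cause was not tested.

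Same-numbered libraries of the groups did not deviate together (r across genes 0.0823, 0.0357 and −0.0119), so the numbers were not taken as a pairing. With the replicate number as a block, 16 members passed, 12 of them among the 13, 5 higher and 11 lower, and the log2 fold change of FDPS was −0.0047. IDI1 did not pass with the block (0.0553), whereas HMGCS1, EBP, NR1H3 and ABCA1 did, as did the scaffold copy of FDFT1 (FDFT1_1, 0.0104), which passed in no other setting.

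With 3 libraries a group, a two-sided exact permutation test of a single gene cannot give less than p = 0.1, so calls rest on the spread that edgeR shares over genes. A member with few counts, such as TM7SF2 or ABCG1, is measured less precisely than GRAMD1B or SCD. A p that misses the threshold does not show that values did not differ.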

Other observations

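Ratios of raw counts within a library, which do not depend on how libraries are scaled, were set beside each other for related genes in A375 neg (controls) and A375 RIPK4.KO (knockouts). They compare libraries and not the levels of the genes, whose lengths differ. GRAMD1B over GRAMD1A was 3.73, 3.81 and 3.56 in the controls against 0.869, 0.825 and 0.818 in the knockouts. INSIG1 over INSIG2 was 3.70, 3.21 and 3.38 in the controls against 1.62, 2.21 and 1.76 in the knockouts. SREBF1 over SREBF2 was 1.149, 1.17 and 1.19 in the controls against 0.848, 0.838 and 0.90 in the knockouts. None of these ratios overlapped between the groups. Each sets a member that passed as lower over a relative that did not, so the ratios restate the gene results above.

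For the LXR receptors, NR1H3 over NR1H2 was 0.0760, 0.0820 and 0.0786 in the controls against 0.0412, 0.0485 and 0.0420 in the knockouts, without overlap. In this pair NR1H3 did not pass (edgeR adjusted p = 0.0682), and NR1H2 passed as higher (0.0430). For the lysosomal partners, NPC1 over NPC2 was 1.83, 2.06 and 2.06 in the controls against 2.09, 1.70 and 2.05 in the knockouts, and the groups overlapped. SCD over FASN was 0.530, 0.471 and 0.471 in the controls against 0.405, 0.410 and 0.415 in the knockouts, without overlap. No test was run on these ratios, and the share of such pairs without overlap among all genes was not counted.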
